A study of Mus musculus with 6 samples.

Results

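Translation factors are the proteins that load a ribosome onto an mRNA, find the start codon and then carry the ribosome along the coding sequence. Genes were taken by their symbols in the authors' deposited table, as those that begin with Eif1 to Eif6, Eef1 or Eef2, and each needed 10 or more reads in at least 3 of the 6 libraries. Of 72 such symbols, 7 pseudogenes and 7 genes that the choice left out by name (the kinases Eif2ak1 to Eif2ak4, Eif2s1, Eif4ebp1 and Eef1e1) were set aside and 4 had too few reads. This left 54 factors of 46983 genes in the tables. At the read minimum, Eif2s3y was just inside with 686, 2 and 609 reads in WT replicates 1 to 3 and 2, 285 and 0 in Slc7a5-KO, and Eif4ebp3 just outside with 8, 2 and 14 reads against 0, 12 and 0. The rule used symbols, the names left out and read counts, and no difference between groups. It was set with earlier results of these data known. The 54 passed the count filter of the test as well.

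RNA of whole cerebellum was sequenced from 6 C57BL/6J mice at postnatal day 60, 1 library per mouse. The 3 mice labelled WT were Tie2-Cre Slc7a5 fl/+ and the 3 labelled Slc7a5-KO were Tie2-Cre Slc7a5 fl/fl, so every animal carried the Cre and at least 1 floxed allele. Tie2-Cre acts in endothelial and blood lineages, not in neurons or most glia. Slc7a5 encodes LAT1, which carries large neutral amino acids such as leucine across brain vessels. By its title, the series concerns impaired amino acid transport at that barrier and autism spectrum disorder.

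Initiation begins when eIF2 brings the initiator tRNA to the small ribosomal subunit, helped by eIF1, eIF1A, eIF3 and eIF5, while eIF4F binds the mRNA cap and recruits that subunit. eIF2B recharges eIF2 with GTP, and it is the step that stress kinases such as GCN2 block when amino acids run short. During elongation eEF1A delivers charged tRNAs and eEF2 moves the ribosome forward. The eEF2 kinase slows that step when energy or mTORC1 activity is low.

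Library depth was 13438182 to 34160856 gene reads, lowest in Slc7a5-KO replicate 3, which lay apart on principal component 1 (34% of variance). WT replicate 2 lay apart on component 2 (24.7%) and had the highest summed granule cell (4790 CPM) and blood (253 CPM) markers, where the others had 2730 to 4460 and 74.7 to 165 CPM. It also had the highest Purkinje (5240 CPM), astrocyte and Bergmann glia (2040 CPM) and choroid plexus (5650 CPM) sums. Its oligodendrocyte (3260 CPM) and endothelial (238 CPM) sums were the lowest. Purkinje, granule, glial and endothelial markers were present in all libraries, with the 5 endothelial markers summing to 238 to 316 CPM (the count divided by library size, scaled between libraries). Slc7a5 itself read 72.0, 66.3 and 43.2 CPM in WT replicates 1 to 3, against 164, 59.4 and 118 CPM in replicates 1 to 3 labelled Slc7a5-KO. It overlapped between the groups and was not lower under the Slc7a5-KO label (log2 fold change, Slc7a5-KO over WT, 0.91 ± 0.42 SE, edgeR adjusted p = 0.84), so every direction below is that of the libraries labelled Slc7a5-KO. Summed choroid plexus markers were 30.6 CPM in Slc7a5-KO replicate 2 against 2330 to 5650 CPM in the others. That library also had the lowest Purkinje (2930 CPM), granule cell (2730 CPM) and astrocyte and Bergmann glia (1350 CPM) sums. Its oligodendrocyte sum was the highest (6030 CPM). By Xist and Y-linked genes, WT replicate 2 and Slc7a5-KO replicates 1 and 3 were female. In a bulk tissue, fewer cells of a type and less RNA per cell cannot be told apart.

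None of the 54 factors passed an adjusted p of 0.05 in either direction (edgeR quasi-likelihood test, adjusted over 16851 genes, of which 0.0475% passed). At an unadjusted p under 0.05, 4 factors were counted, which is 7.41% of them against 6.22% of all genes tested. 3 of these stood higher in Slc7a5-KO (Eif1, Eif3c and Eif2s3x), against 3.45% of all genes tested, and 1 lower (Eif3e), against 2.77%. DESeq2 and limma-voom also passed 0 factors after adjustment (0.261% and 0.0593% of all genes tested), with 4 at an unadjusted p under 0.05 in each. The authors' deposited table likewise listed 0 of the 54 at an adjusted p under 0.05, against 0.9% of the genes with an adjusted p there.

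The fold changes of the factors lay close to 0. The median log2 fold change was 0.02, with 32 factors above 0 and 22 below, and over all genes tested it was 0.002, with 50.3% above 0. The median size of the change, with the sign dropped, was 0.122 for the factors and 0.198 for all genes tested. The factors were also measured more precisely, with a median SE of 0.153 against 0.238 for all genes tested. Both the size and the share of narrow intervals depend on that precision, so they do not show that the factors are steadier than other genes. For 37 of 54 factors (68.5%) the 95% interval of the fold change lay wholly within 1.5-fold either way, which was so for 37% of all genes tested. For the other 17 the interval reached past 1.5-fold, so these data do not bound the difference within that size. Between animals of a group, the factors had a median coefficient of variation of 12.7%, and all genes tested had 20%. Together the 54 factors took 0.69% to 0.819% of gene reads, lowest in WT replicate 2.

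**Figure D1:**
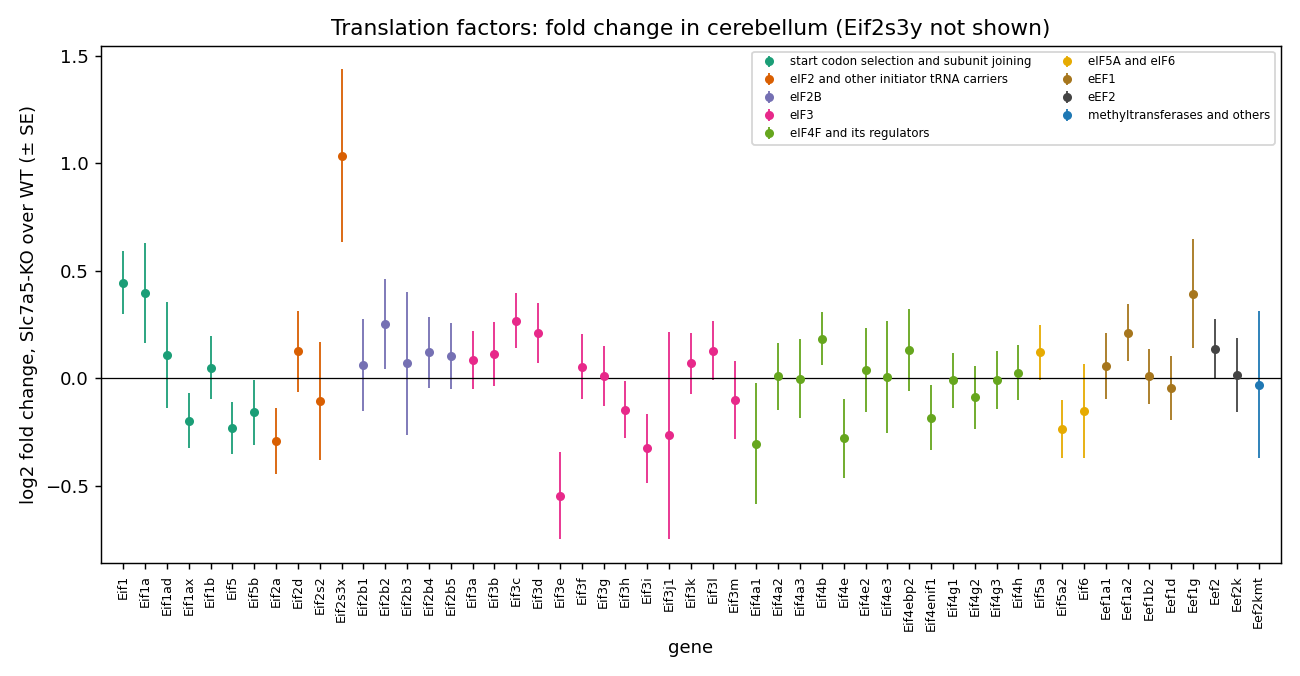
Log2 fold change of each factor, Slc7a5-KO over WT, with its standard error, coloured by factor complex (3 libraries per group). Most points lie within 0.25 of 0, Eif2s3x stands highest at 1.04 and Eif3e lowest at -0.55, and Eif2s3y, on the Y chromosome, is not drawn.

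The groups did not overlap for 5 factors (9.26%), while 11.5% of all genes tested separated in this way. Eif1, Eif3c and Eif4b were higher in every library labelled Slc7a5-KO than in any WT library (5.93% of all genes tested), and Eif2a and Eif5 were lower (5.54%). The heat map of all factors by library shows no block of rows that switches at the border between the groups.

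**Figure D2:**
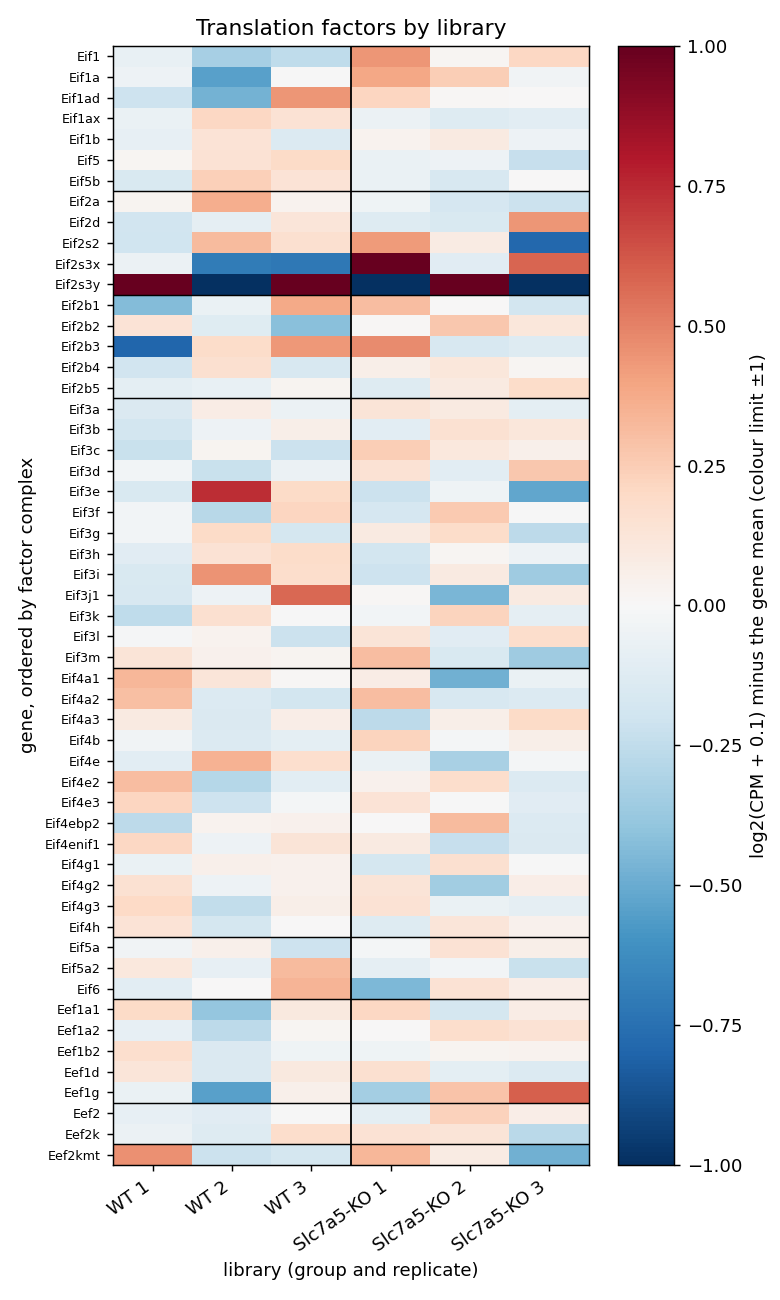
Each row is a factor and each column a library, and colour gives log2(CPM + 0.1) minus the mean of the gene over the 6 libraries, with colours capped at 1 either way. Horizontal lines part the factor complexes and the vertical line parts WT from Slc7a5-KO; Eif2s3y alternates with the sex of the animal, and single squares such as Eif3e in WT replicate 2 stand out.

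ATF4, the factor that amino acid shortage induces, binds composite elements, so the promoters were searched for TGATGNAA, with N any base, on both strands. RefSeq windows on GRCm38.p6, from 250 bases before to 50 after each start, were found for 44 of the 54 factors. 2 of the 44 genes (4.55%) held a match, and 4.51% of all genes in the table did. Both matches are shown because they are the only ones, with the 8 matching bases in capitals and the element on the opposite strand. The first lies 84 bases before one RefSeq start of Eef2k (chr7:120851094-120851123, plus strand) and the second 96 bases before the RefSeq start of Eif2s3x (chrX:94212729-94212758, minus strand). Both stretches lie inside the wider GENCODE bounds of their genes (120842831 to 120907450 for Eef2k and 94188707 to 94212862 for Eif2s3x), so by that annotation they are downstream of the first start.
Eef2k: ctttctgcttgTTTCATCAagctcagcttg
Eif2s3x: ttcgccatcatTTTCATCAggtctatgccg
A match is a description of letters and not a site. The log2 fold changes of the genes that hold it were 1.04 for Eif2s3x and 0.01 for Eef2k.

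Levels between genes were compared per length, as CPM per kb of exon averaged over the 6 libraries. Eef2 stood highest at 517 CPM per kb, followed by Eef1a2 at 415. Eef1a1, the eEF1A form found in most tissues, had 127 CPM per kb, and Eif4g2, a scaffold related to eIF4G that does not bind the cap protein eIF4E, had 110. Within eIF3 the levels ran from 0.474 CPM per kb for Eif3j1 to 94.5 for Eif3g. The eIF2B subunits ran from 1.28 to 16.4 CPM per kb, the last being Eif2b5, the catalytic subunit.

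The tables list 0 reads that map to several places, so reads from a stretch shared with another gene do not enter the counts. Of all 50-base stretches in the GENCODE transcripts of Eif3j1, 49.1% occur in no other gene, and Eif3j2 had 0 libraries with 10 reads. The share was 55.8% for Eef1g, 59.6% for Eef1a1, 62.8% for Eif3d, 65.4% for Eif2s3x and 71.6% for Eif4a1. The levels of these 6 factors per length are therefore uncertain, while Eef1a2 has 100% and Eef2 92.9%.

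**Figure D3:**
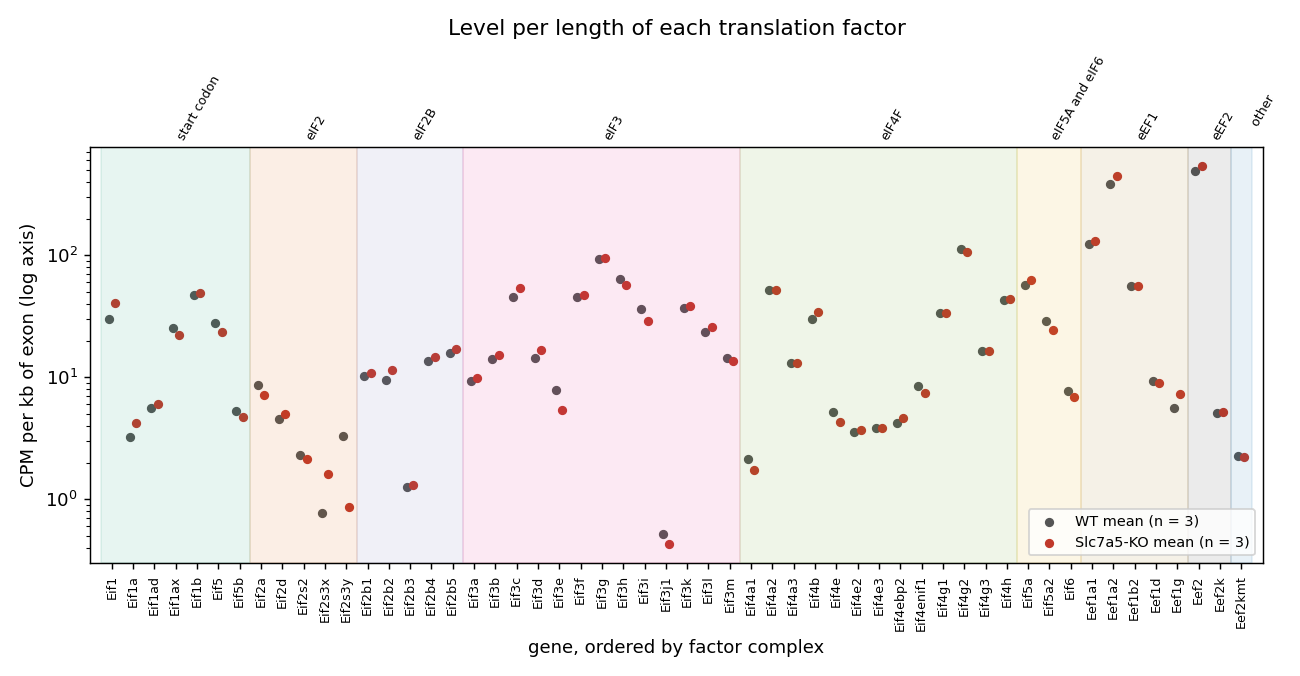
Mean level of each factor in CPM per kb of exon on a log axis, for WT and Slc7a5-KO (3 libraries each), with shading by factor complex. Eef2 and Eef1a2 stand at the top, with WT means of 493 and 384 and Slc7a5-KO means of 541 and 445, and Eif2s3x and Eif2s3y show the widest gaps between the groups.

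Factors were grouped by symbol, so a group name does not show that each member acts in that complex. The group named for start codon selection and subunit joining held 7 factors, with a median log2 fold change of 0.05. Of these, 1 (14.3%) had an unadjusted p under 0.05, against 6.22% of all genes tested. Eif1, which keeps the scanning ribosome from starting at the wrong codon, lies on chromosome 11 (GRCm38, 100319885 to 100322096, plus strand). Its WT replicates 1 to 3 read 69.8, 58.2 and 61.6 CPM and its Slc7a5-KO replicates 99.4, 74.2 and 84.5 CPM. The lowest Slc7a5-KO library lay above the highest WT library. The log2 fold change was 0.45 ± 0.15 (SE, 95% interval 0.14 to 0.75, edgeR adjusted p = 0.59), the smallest unadjusted p of all 54 (0.0068). It stayed above 0 without any 1 library, from 0.33 to 0.54.

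Eif5, which makes eIF2 hydrolyse its GTP once the start codon is met, was lower in value. It stood at 177, 193 and 200 CPM in WT against 167, 169 and 149 CPM in Slc7a5-KO. All 3 Slc7a5-KO libraries were below all WT libraries, by a small margin between 169 and 177 CPM. On the log2 scale the difference was -0.23 ± 0.12 (edgeR adjusted p = 0.83). Eif1a, an eIF1A gene, had 14.6, 10.4 and 15.1 CPM in WT against 19.9, 18 and 14.8 CPM in Slc7a5-KO (log2 0.40 ± 0.23, edgeR adjusted p = 0.86). Its X-linked counterpart Eif1ax had 119, 144 and 138 CPM in WT against 120, 114 and 116 CPM in Slc7a5-KO (log2 -0.20 ± 0.13, edgeR adjusted p = 0.89). Eif5b, which joins the ribosomal subunits, Eif1ad and Eif1b had -0.16 ± 0.15, 0.11 ± 0.25 and 0.05 ± 0.15, each with overlap.

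eIF2 was represented by Eif2s2, Eif2s3x and Eif2s3y, and beside them stand Eif2a and Eif2d, which can bring initiator tRNA without it. Eif2a (chromosome 3, 58525821 to 58557501, plus strand) had 49.0, 61.6 and 49.3 CPM in WT against 46.5, 42.6 and 41.4 CPM in Slc7a5-KO. The groups did not overlap, and WT replicate 2 stood apart from the other WT libraries. The log2 difference came to -0.29 ± 0.15 (edgeR adjusted p = 0.83), or -0.17 without WT replicate 2 (edgeR adjusted p = 1). Eif2s2, the beta subunit of eIF2, had 12.5, 17.9 and 16.1 CPM in WT against 19.3, 15.2 and 8.31 CPM in Slc7a5-KO. Its highest and its lowest library were both Slc7a5-KO (log2 -0.11 ± 0.27, edgeR adjusted p = 0.99; 0.16 without Slc7a5-KO replicate 3), and Eif2d had 0.12 ± 0.19 (-0.09 without it).

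The gamma subunit of eIF2 has a copy on each sex chromosome, and Eif2s3x is known to escape X inactivation. Eif2s3y (Y, 1010543 to 1028847, plus strand) had 686 and 609 reads in WT replicates 1 and 3 and 285 in Slc7a5-KO replicate 2, the males. It had 2, 2 and 0 reads in the females, so it followed sex, and WT held 2 males where Slc7a5-KO held 1. Its difference between groups cannot be told apart from sex. Eif2s3x (X, 94188707 to 94212862, minus strand) had 3.93, 2.49 and 2.46 CPM in WT against 8.30, 3.77 and 6.18 CPM in Slc7a5-KO. The 2 female Slc7a5-KO libraries were the highest, and the female WT library stood at 2.49 CPM. The male Slc7a5-KO library, at 3.77 CPM, lay between the WT males at 3.93 and 2.46 CPM. With 1 female in WT and 1 male in Slc7a5-KO, the difference of Eif2s3x cannot be cleanly told apart from sex either. Its log2 value was 1.04 ± 0.40 (95% interval 0.20 to 1.88, edgeR adjusted p = 0.71) and 0.89 with a term for sex (edgeR adjusted p = 0.65). It rested on 68 to 268 reads per library.

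All 5 eIF2B subunits were above 0, at log2 fold changes of 0.062 to 0.253, where 50.3% of all genes tested were above 0. None had an unadjusted p under 0.05, against 6.22% of all genes tested. Without WT replicate 1, or without Slc7a5-KO replicate 1, 3 of the 5 were above 0 and 2 below: without WT replicate 1, Eif2b1 stood at -0.12 and Eif2b3 at -0.22. Eif2b5 had 39.7, 40.4 and 43.4 CPM in WT against 38.9, 45.3 and 48.4 CPM in Slc7a5-KO, with overlap. Eif2b2, a regulatory subunit, had the largest value of the group (0.25 ± 0.21, edgeR adjusted p = 0.93), and Eif2b4 had 0.12 ± 0.16. Eif2b1 and Eif2b3 had 0.06 ± 0.21 and 0.07 ± 0.33, and Eif2b3 was the most variable factor besides Eif2s3y, with a coefficient of variation of 33.7%.

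Of 13 eIF3 subunits, 8 were above 0 and 5 below, with a median of 0.05. eIF3 is the largest initiation factor and bridges the mRNA, the cap complex and the small subunit. Eif3e (chromosome 15, 43250058 to 43282719, minus strand) had 38.8, 72.0 and 49.3 CPM in WT against 37.1, 42.0 and 30.1 CPM in Slc7a5-KO. WT replicate 2 lay far above the rest, and WT replicate 1 lay below Slc7a5-KO replicate 2. The log2 fold change was -0.55 ± 0.20 (95% interval -0.97 to -0.12, edgeR adjusted p = 0.67). Without WT replicate 2 it was -0.27 (edgeR adjusted p = 1). WT replicate 2 was at an extreme for most of the cell type markers given above. The part of those markers in this value, and in those of Eif2a and Eif3i, was not tested.

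Eif3c (chromosome 7, 126546455 to 126566411, minus strand) is a core subunit. It had 149, 177 and 150 CPM in WT against 206, 187 and 180 CPM in Slc7a5-KO. The gap between the groups was 177 to 180 CPM. The difference was 0.27 ± 0.13 on the log2 scale (edgeR adjusted p = 0.80). Eif3i, with 106, 161 and 133 CPM in WT against 102, 125 and 91.9 CPM in Slc7a5-KO, overlapped (log2 -0.33 ± 0.16, edgeR adjusted p = 0.81). WT replicate 2 was again the highest library, and the value was -0.16 without it. Eif3d, which can itself bind caps of some mRNAs, had 0.21 ± 0.14, but 0.06 with both strands counted together and 0.13 without Slc7a5-KO replicate 3. Eif3g had 0.01 ± 0.14. The remaining subunits Eif3a, Eif3b, Eif3f, Eif3h, Eif3k, Eif3l and Eif3m lay between -0.147 and 0.127 on the log2 scale, each with overlap, and Eif3j1 had -0.27 ± 0.48.

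**Figure D4:**
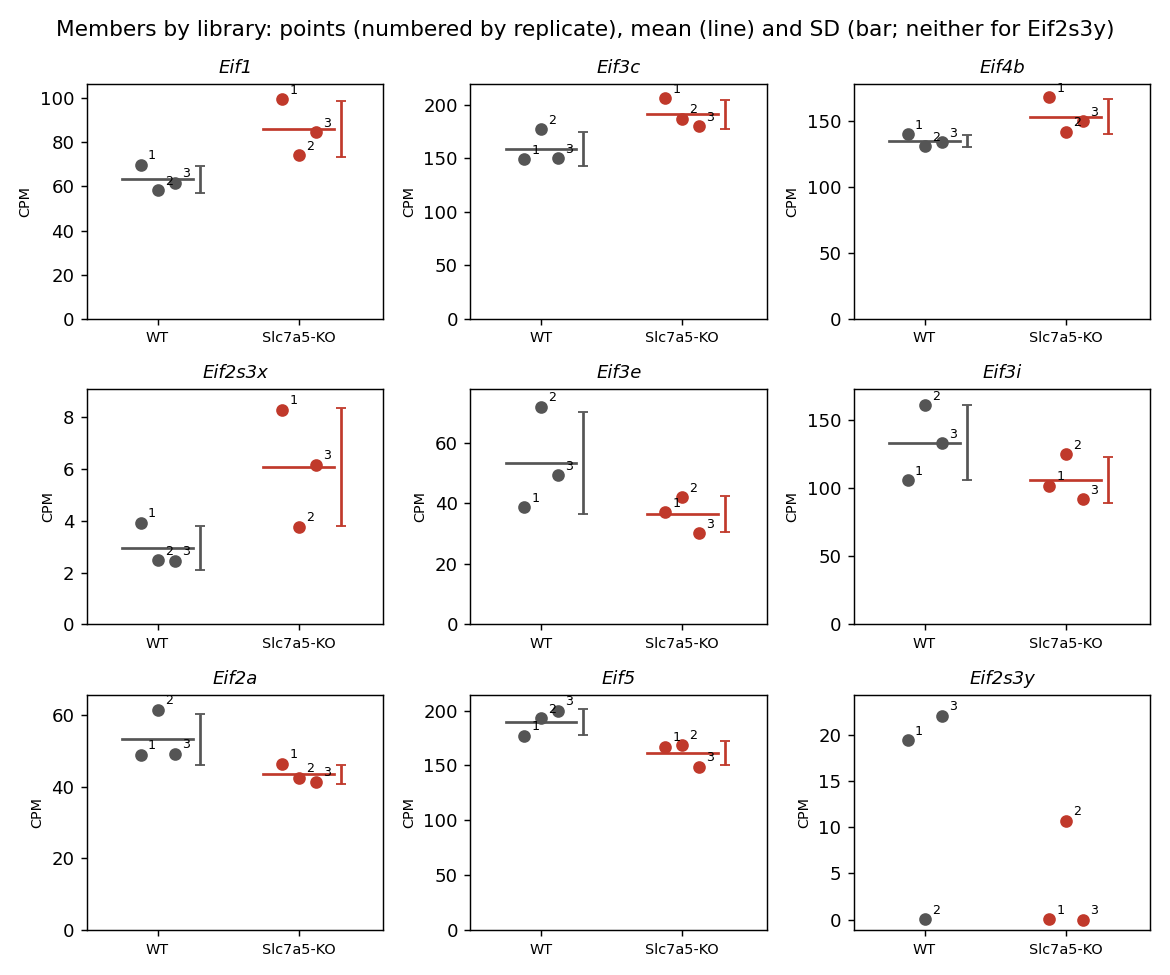
CPM of 9 factors in each library, with points numbered by replicate, the group mean as a line and the SD as a bar (neither for Eif2s3y). Eif1, Eif3c and Eif4b separate upward in Slc7a5-KO, Eif2a and Eif5 separate downward, and Eif3e and Eif3i have their highest point in WT replicate 2.

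The group named for eIF4F and its regulators took every factor with an Eif4 symbol, whether or not it acts in that complex. It held 13 factors, 6 above and 7 below 0, with 0 at an unadjusted p under 0.05, against 6.22% of all genes tested. eIF4E binds the cap, eIF4G is the scaffold and eIF4A the helicase. Eif4b, a helper of that helicase, had 140, 131 and 134 CPM in WT against 168, 142 and 150 CPM in Slc7a5-KO. The groups came within 140 and 142 CPM of each other without overlap (log2 0.18 ± 0.13, edgeR adjusted p = 0.89). Eif4e had 26.4, 36.0 and 31.9 CPM in WT against 27.1, 22.6 and 27.9 CPM in Slc7a5-KO (log2 -0.28 ± 0.18, edgeR adjusted p = 0.89). Eif4g1 stood at 247 ± 10.5 CPM (SD, n = 3) in WT and 245 ± 28.7 CPM in Slc7a5-KO. Eif4g2 had 1230, 1070 and 1140 CPM in WT against 1210, 867 and 1160 CPM in Slc7a5-KO. The log2 value was -0.09 ± 0.15 (edgeR adjusted p = 0.98). Its lowest library had few choroid plexus, Purkinje, granule cell and astrocyte markers and the most oligodendrocyte markers. The part of those markers in the Eif4g2 value was not tested. Eif4a2 had 337, 249 and 241 CPM in WT against 339, 245 and 248 CPM in Slc7a5-KO, so replicate 1 was the high library in both groups and the means were 276 and 277 CPM. Eif4a1 had -0.31 ± 0.28 from 5.90 to 10.4 CPM. Eif4a3, Eif4e2, Eif4e3, Eif4g3 and Eif4h lay between -0.008 and 0.039.

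The repressor of eIF4E that mTORC1 controls and that is most abundant in brain, Eif4ebp2, had 21.3, 26.1 and 26.3 CPM in WT against 25.6, 31.7 and 23.2 CPM in Slc7a5-KO (log2 0.13 ± 0.19, edgeR adjusted p = 0.97). Its relative Eif4ebp3 fell short of the read minimum, with 10 reads in 2 libraries. Eif4enif1, which carries eIF4E into the nucleus, had -0.19 ± 0.15. Eif4ebp1, another such repressor that was set aside from the 54, had 6.89, 5.88 and 5.94 CPM in WT against 15.4, 10.1 and 14.0 CPM in Slc7a5-KO. Its groups did not overlap, and its log2 value was 1.07 ± 0.27 (edgeR adjusted p = 0.29, unadjusted p = 9e-04). DESeq2 gave an adjusted p of 0.072 and limma-voom 0.33.

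eIF5A eases peptide bond formation at difficult stretches and carries the modified residue hypusine. Eif5a had 138, 147 and 123 CPM in WT against 140, 157 and 148 CPM in Slc7a5-KO (log2 0.12 ± 0.13). Eif5a2 had 143, 126 and 166 CPM in WT against 125, 131 and 114 CPM in Slc7a5-KO (log2 -0.24 ± 0.14, edgeR adjusted p = 0.85). Both overlapped between the groups. Eif6, which keeps the ribosomal subunits apart, had a log2 value of -0.15.

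The elongation group held the 3 highest levels per length, and none had an unadjusted p under 0.05, against 6.22% of all genes tested. Eef1a2, the eEF1A form of mature neurons and muscle (chromosome 2, 181147653 to 181157014, minus strand), had 813, 718 and 872 CPM in WT against 861, 971 and 949 CPM in Slc7a5-KO. One Slc7a5-KO library lay below the highest WT library. The log2 fold change was 0.21 ± 0.13 (95% interval -0.07 to 0.49, edgeR adjusted p = 0.88). Skeletal muscle markers summed to only 2.82 to 6.10 CPM. Eef1a1 had 358, 240 and 336 CPM in WT against 362, 278 and 331 CPM in Slc7a5-KO, nearly the same in both groups, with WT replicate 2 the lowest.

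Eef2 (chromosome 10, 81176631 to 81182498, plus strand) had 1640 ± 64.8 CPM (SD, n = 3) in WT and 1800.0 ± 204 CPM in Slc7a5-KO (log2 0.14 ± 0.14, 95% interval -0.15 to 0.42). Its log2 value was 0.05 without Slc7a5-KO replicate 2. Eef2k, the kinase that inhibits eEF2, had 36.3, 34.6 and 42.8 CPM in WT against 41.7, 41.4 and 31.4 CPM in Slc7a5-KO (log2 0.01 ± 0.17, edgeR adjusted p = 1). Eef1g, part of the complex that recharges eEF1A, had 15.5, 11.1 and 16.8 CPM in WT against 12.8, 19.8 and 24.6 CPM in Slc7a5-KO. Both groups overlapped, and the log2 value was 0.39 ± 0.25 (edgeR adjusted p = 0.89). Eef2kmt, a methyltransferase that acts on eEF2, was low, at 4.19 to 8.11 CPM. The eEF1B subunits Eef1b2 and Eef1d had 0.01 ± 0.13 and -0.05 ± 0.15.

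Paired genes for one factor were compared as a ratio of reads within each library, which does not depend on how libraries are scaled. 9 pairs were tested by a 2-sided exact permutation test, whose smallest p is 0.1 for 3 against 3, so no pair could pass 0.05. The log2 ratio of Eif1a to Eif1ax was -3.02, -3.80 and -3.18 in WT and -2.59, -2.66 and -2.97 in Slc7a5-KO. It was the only pair of the 9 whose groups did not overlap (difference 0.60 ± 0.26 SE, exact p = 0.1, adjusted p = 0.45 over the pairs). Without WT replicate 2, the lowest library, the difference was 0.36. The log2 ratio of Eef1a2 to Eef1a1 was 1.18, 1.58 and 1.37 in WT and 1.25, 1.80 and 1.52 in Slc7a5-KO (difference 0.15 ± 0.20, exact p = 0.5), and the difference was 0.006 without Slc7a5-KO replicate 2. Per kb, Eef1a2 had 2.71 to 4.17 times the level of Eef1a1 across the libraries, with the caution above for reads lost from Eef1a1.

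Eif4a2, the eIF4A form enriched in neurons, exceeded Eif4a1 by a log2 ratio of 4.88 ± 0.12 (SD, n = 3) in WT and 5.21 ± 0.21 in Slc7a5-KO (exact p = 0.2). The caution above for lost reads holds for Eif4a1 too, so the size of this excess is uncertain. The ratio of Eif1b to Eif1 was lower in Slc7a5-KO by 0.39 on the log2 scale (difference -0.39 ± 0.20, exact p = 0.2). That of Eif5a2 to Eif5a differed by -0.35 ± 0.20 (exact p = 0.2). Ratios within the eIF4G and eIF4E families differed by -0.085 to 0.328, with exact p from 0.4 to 1.

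**Figure D5:**
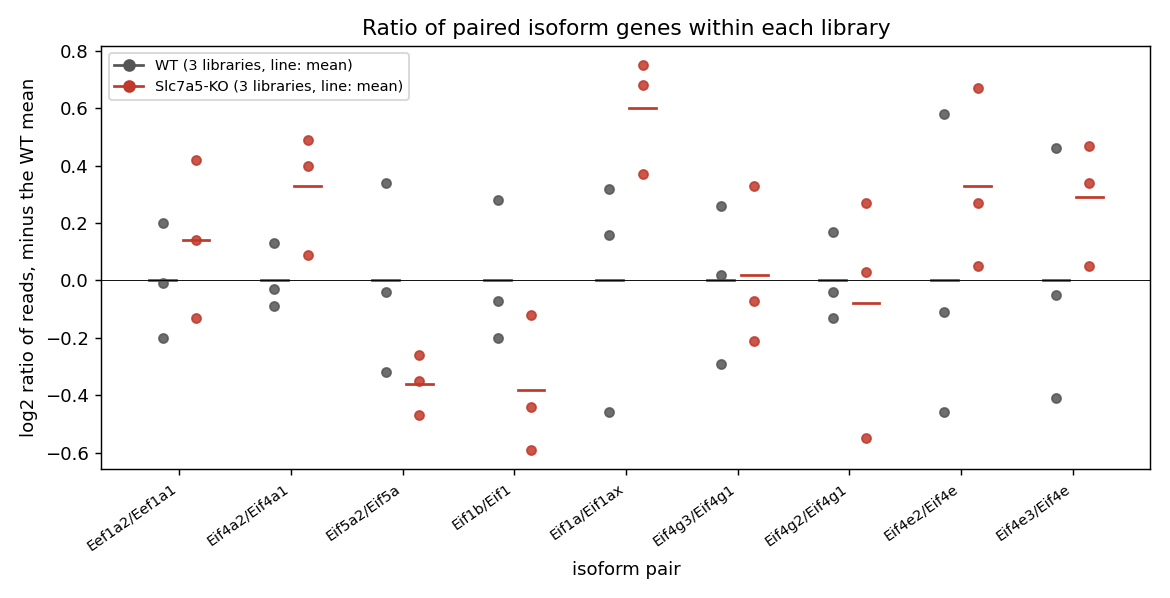
Log2 ratio of reads for 9 gene pairs in each library, minus the WT mean of the pair, with lines at the group means. Eif1a over Eif1ax is the pair in which the 3 Slc7a5-KO points lie above the 3 WT points, and the other 8 pairs overlap.

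Genes that work with these factors were counted from lists. Of 10 mitochondrial translation factors tested, 0 passed, with 2 above 0 and 8 below (median -0.08), and the smallest p values belonged to Mtrf1 (log2 -0.29 ± 0.34) and Mtrf1l (-0.26 ± 0.48). Mtrf1 stood at -0.04 without Slc7a5-KO replicate 1 and at -0.56 without Slc7a5-KO replicate 3, and Mtrf1l at 0.07 without WT replicate 2. Of 9 genes of termination, recycling and reinitiation, 0 passed (median -0.16). Abce1, which splits ribosomes for recycling, had 92.9, 102 and 105 CPM in WT against 87.1, 76.6 and 87.0 CPM in Slc7a5-KO (log2 -0.26 ± 0.13, edgeR adjusted p = 0.82), and Denr had -0.27 ± 0.19.

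Of 15 partners of the cap and the poly(A) tail, 0 passed and 2 (13.3%) had an unadjusted p under 0.05, against 6.22% of all genes tested. In 4 of the 15 (26.7%) the groups did not overlap, against 11.5% of all genes tested. Larp1, which binds mRNAs of ribosomal proteins and elongation factors under mTORC1 control, had 113, 74.1 and 96.4 CPM in WT against 116, 117 and 128 CPM in Slc7a5-KO. Its groups did not overlap (log2 0.35 ± 0.15, edgeR adjusted p = 0.75), and the value was 0.21 without WT replicate 2. Larp4, which protects poly(A) tails, had 27.8, 26.8 and 28.9 CPM in WT against 22.7, 21 and 18.6 CPM in Slc7a5-KO, also without overlap (log2 -0.42 ± 0.18, edgeR adjusted p = 0.76). Of 9 genes that modify eIF5A or eEF2, 0 passed (median -0.03), and Dph3 and Dph2 of the diphthamide pathway had -0.29 ± 0.15 and 0.35 ± 0.28. Among the 7 genes set aside, Eif2s1, the subunit that stress kinases phosphorylate, had 27.5, 28.1 and 18.2 CPM in WT against 23.2, 22.5 and 11 CPM in Slc7a5-KO, with overlap (log2 -0.37 ± 0.26, edgeR adjusted p = 0.90). Without Slc7a5-KO replicate 3, the lowest library, its value was -0.11.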

How the data were processed

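STAR 2.5.4 and the build GRCm38 (mm10) are named in the submitters' processing notes, and libraries were made with the SENSE mRNA-Seq V2 kit per the labels' protocols. The deposited tables hold raw read counts per gene, 1 table per animal, and the reverse-strand count was used. Reads of no gene or of several genes (19.5% to 22.2% of aligned reads) stayed out. The authors' deposited table gives a mean normalised signal, log2 fold changes, a score (Wald), and p-values, and DESeq2 1.10.1 and R 3.2.4 are among the tools named in the submitters' processing notes. For the annotation release, the sources used here give no name.

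Identifiers were matched to GENCODE M21 without version (46488 of 46983). Symbols ending in -ps with a number were also left out, and with 10 reads in 6 libraries Eif4a-ps4 would otherwise have qualified. Counts were filtered (filterByExpr, minimum count 10), TMM-scaled, and compared by edgeR 4.0.16 in R 4.3.3 (quasi-likelihood, robust, 2-sided, Benjamini-Hochberg over 16851 genes). The script was tested on simulated data, with 16174 genes tested. There it called 22.4% of 67 genes set to differ 1.5-fold, 61.2% of 67 set 2-fold apart and 83.3% of 66 set 4-fold apart. It also called 12 genes that were set not to differ. Values after ± are SE for log2 values and SD for CPM unless stated, with n = 3 mice per group. Each interval is for the difference between groups in the edgeR fit, whose estimate of spread shares information across genes. It rests on these mice only. Named factors were those with the 8 smallest p each way, the highest per length and 2 smallest p of each complex, the gene pairs, regulators, sex-linked genes, and 2 per partner list, and the other members of each complex were then added for completeness. The members and lists were chosen with earlier results of these data known. Alternatives were RLE scaling, no filter, DESeq2 1.42.0, limma-voom (limma 3.58.1), both strands together, a replicate block, a sex term and leaving out each library.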

Additional observations from a re-analysis of the deposited data

How the results depend on the processing

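The number of factors passing an adjusted p of 0.05 was 0 under every alternative run, and their median log2 fold change lay between -0.051 and 0.076 without any 1 library. Over all genes, 8 passed by edgeR, 71 with no count filter, 44 by DESeq2, 16 with a sex term, and 3 to 20 when 1 library was left out. The replicate block gave a factor median of 0.021, with 0 factors and 6 genes called. Same-numbered libraries deviated from their group means with correlations of -0.04, -0.06 and -0.03, and differently numbered ones with -0.03 to 0.07. These values do not set same-numbered libraries apart from the rest, and they cannot settle whether animals were paired.

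Values near 0 changed sign under some alternatives. Eef2kmt (-0.031) became 0.033 by limma-voom, 0.031 with both strands and 0.06 with a sex term. Eif4g3 (-0.008) became 0.003 by limma-voom and 0.048 with a sex term, and with that term Eif4g1 (-0.011) became 0.016, Eif4a3 (-0.002) 0.05 and Eif2b3 (0.069) -0.037. The next values are log2 ranges with 1 library left out. Eef2k ran from -0.053 to 0.137, Eif3g from -0.084 to 0.133, Eif4g2 from -0.181 to 0.044, Eef2kmt from -0.222 to 0.228, Eif1b from -0.008 to 0.139, Eef1a1 from -0.098 to 0.168 and Eif4a2 from -0.162 to 0.181. Eif4g3 ran from -0.119 to 0.093, Eif4g1 from -0.103 to 0.071, Eif4e2 from -0.079 to 0.228, Eif4e3 from -0.087 to 0.124, Eif4ebp2 from -0.013 to 0.225, Eef1b2 from -0.053 to 0.102 and Eif2d from -0.09 to 0.225. Eif2s2 ran from -0.385 to 0.159, Eif3m from -0.315 to 0.035, Eif6 from -0.274 to 0.016, Eif2b3 from -0.221 to 0.323, Eif2b1 from -0.115 to 0.295, Eif4h from -0.05 to 0.102 and Eif3f from -0.078 to 0.183. Eif3k ran from -0.034 to 0.172, Eif4a3 from -0.099 to 0.118, Eef1d from -0.149 to 0.012, Eif1ad from -0.07 to 0.411, Mtrf1l from -0.443 to 0.073, the ratio Eif4g3/Eif4g1 from -0.142 to 0.149 and the ratio Eif4g2/Eif4g1 from -0.262 to 0.15. The cause was not tested.

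Other values shrank by more than 1.5 times without 1 library and did not turn sign. Without WT replicate 2, Eif1a was 0.246, Eef1g 0.237, Eif4e -0.168, Eif5b -0.072 and Dph3 -0.163, and the ratio Eif1b/Eif1 was -0.248, Eif4e2/Eif4e 0.095 and Eif4e3/Eif4e 0.079. Without Slc7a5-KO replicate 3, Eef1g was 0.176 and Dph2 0.129. Eif4b was 0.11 without Slc7a5-KO replicate 1. Without WT replicate 3, Eif5a2 was -0.129, Eif2b2 0.12, Eif3j1 0 and the ratio Eif5a2/Eif5a -0.18. Without Slc7a5-KO replicate 2, Eif4enif1 was -0.121, Eif4a1 -0.16, Eif3j1 -0.113 and the ratio Eif4e2/Eif4e 0.16. Eef2 was 0.048 without Slc7a5-KO replicate 2, and Eif2b5 0.035 without Slc7a5-KO replicate 3. Without WT replicate 1, Eif2b4 was 0.057, Eif3b 0.053 and Eif3a 0.036. Eif5a was 0.051, Eif3l 0.052 and Eif3h -0.092 without WT replicate 3. Low counts limit Eif3j1, Eif2s3x and Eif4a1.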
